A study of Mus musculus with 5 samples.

Results

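Trp53, the mouse gene for the tumor suppressor p53, and 9 of its established target genes were followed across the cell types of the mouse mammary gland and of 1 mammary tumor. The genes were Trp53, Cdkn1a, Mdm2, Ccng1, Phlda3, Zmat3, Bax, Trp53inp1, Sesn2 and Eda2r. They were matched by symbol in the deposited gene lists, and all 10 were found among 27998 genes. The measurement was 3' single-cell RNA sequencing in droplets, which counts unique molecular identifiers (UMIs), 1 per captured RNA molecule. The labels give 4 groups: BPK tumor with 1 library, BPK 4NQO with 2, PK 4NQO with 1 and BPK vehicle with 1.

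BPK animals were Brca1 wt/flox, Trp53 flox/flox and Krt14cre. PK animals were Brca1 wt/wt, Trp53 flox/flox and Krt14cre. Glands of the 4NQO groups received 12 injections into the milk duct of 4NQO, a quinoline carcinogen that forms DNA adducts. Vehicle glands received 12 injections of PBS and PEG, and the BPK tumor arose in a gland given 24 such 4NQO injections. All 5 libraries therefore came from animals with both Trp53 alleles floxed, and no library came from animals with intact Trp53. Krt14cre drives Cre recombinase from the keratin 14 promoter, which is active in basal cells and in precursors of mammary epithelium, and fibroblasts, endothelium and immune cells lie outside that lineage. The labels do not name the floxed exons. The counts come from the 3' end of a transcript, so a Trp53 UMI cannot tell an intact from a recombined allele, and the Trp53 level does not check the genotype.

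p53 is a transcription factor that is held low by the ubiquitin ligase Mdm2 and is stabilised after DNA damage, mostly at the level of the protein. It then raises genes that stop the cell cycle (Cdkn1a, which encodes the cyclin-dependent kinase inhibitor p21), that end its own signal (Mdm2, Ccng1), that promote death (Bax, Phlda3, Eda2r) and that alter metabolism or RNA handling (Sesn2, Trp53inp1, Zmat3). In breast epithelium p53 is a main barrier to transformation, and its loss goes together with loss of Brca1 function in many tumors.

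The motif that p53 binds consists of a pair of half-sites of 10 bases, each with C, a pair of A or T bases and G at its core. RefSeq windows (GRCm38.p6) from 250 bases before to 50 after a gene start were available for 8 of the 10 genes. Sites were searched on both strands, which give the same hits because the half-site is its own reverse complement, with at most 1 mismatch per half-site and an intact core. A pair without spacer occurred in 0.122% of all 32851 windows, and among the 10 genes in that of Cdkn1a. The pair lies at chr17:29090928-29090947 on the plus strand, 51 bases before the upstream of 2 RefSeq starts of Cdkn1a and 2841 bases before the downstream one. Among the other p53 target genes listed below, 2 of 21 genes with a window held such a pair, Rps27l (chr9:66946296-66946315, plus strand) and Gtse1 (chr15:85859945-85859964, plus strand). The sites of these 3 genes are shown because theirs were the windows of target genes that held a pair without spacer. The 4 core bases of each half-site are in capitals.
Cdkn1a: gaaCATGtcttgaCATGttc
Rps27l: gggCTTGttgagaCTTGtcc
Gtse1: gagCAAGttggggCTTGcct
The Cdkn1a site stands in the following 110 bases before the upstream start (chr17:29090859-29090968, plus strand), in which the capitals again mark the cores.
Cdkn1a context: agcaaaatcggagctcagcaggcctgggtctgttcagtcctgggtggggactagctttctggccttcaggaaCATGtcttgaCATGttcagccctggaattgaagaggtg
Single half-sites were counted as well. The windows of Bax and Mdm2 each held 2, those of Trp53, Ccng1 and Eda2r 1 each, and those of Phlda3 and Sesn2 none, where 39.6% of all windows hold at least 1. These matches describe letters in a short window and say nothing of binding there or elsewhere.

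Libraries held 27383717 to 64169843 UMIs, and 31526 of 34526 barcodes were kept. Each cell was put in a class by marker genes (luminal alveolar, luminal hormone-sensing, basal, fibroblast, endothelial, pericyte, macrophage), and 14.4% of kept cells met no class. UMIs were summed per library and class and given as CPM, the UMIs of a gene over all UMIs of the sum, scaled to 1e6. BPK 4NQO replicate 2 stood apart from the other libraries: clusters that were at least 90% its own held 72.3% of its cells, against at most 2.15% in the other gland libraries. No more than 2 of its barcodes recurred in another library, whereas 26 to 107 recurred between the remaining pairs. Its values are therefore given separately throughout. Nothing in the labels says how many animals a library holds, so the spread between libraries may be technical in part, and intervals on a count cover counting error only. CPM of 3' counts carry no length term, and levels are compared between cells, not between genes.

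Trp53 (chr11:69580359-69591873, plus strand, mm10, GENCODE M21) was found in each of these classes in the glands. Its mean level over the 4 gland libraries was 60.5 ± 9.63 CPM in endothelium, 52.7 ± 10.8 in pericytes, 43.2 ± 14.5 in luminal alveolar cells, 36.05 ± 12.8 in basal cells, 34.4 ± 10.8 in luminal hormone-sensing cells, 32.3 ± 4.27 in fibroblasts and 26.45 ± 1.59 in macrophages (SD, n = 4). Basal cells had 45.1 and 17.1 CPM in the BPK 4NQO libraries, 39.3 CPM in PK 4NQO and 42.7 CPM in BPK vehicle. Of the neighbours in the order of levels, only fibroblasts and macrophages differed by more than the larger of their SDs. BPK 4NQO replicate 2 was the low library in each epithelial class, with 17.1 to 21.9 CPM where the other 3 gland libraries had 38.6 to 53.7 CPM. In endothelium it had 52.97 CPM, against 55.1 CPM in replicate 1, and the part of the library itself in that difference between classes was not tested. Between epithelium and stroma the log2 fold change of Trp53 was -0.12 ± 0.12 (SE), with an adjusted p of 0.402 (edgeR quasi-likelihood test, Benjamini-Hochberg over all genes). Without replicate 2 it was 0.07, and against endothelium alone it was -0.49 with an edgeR adjusted p of 0.00599.

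**Figure D1:**
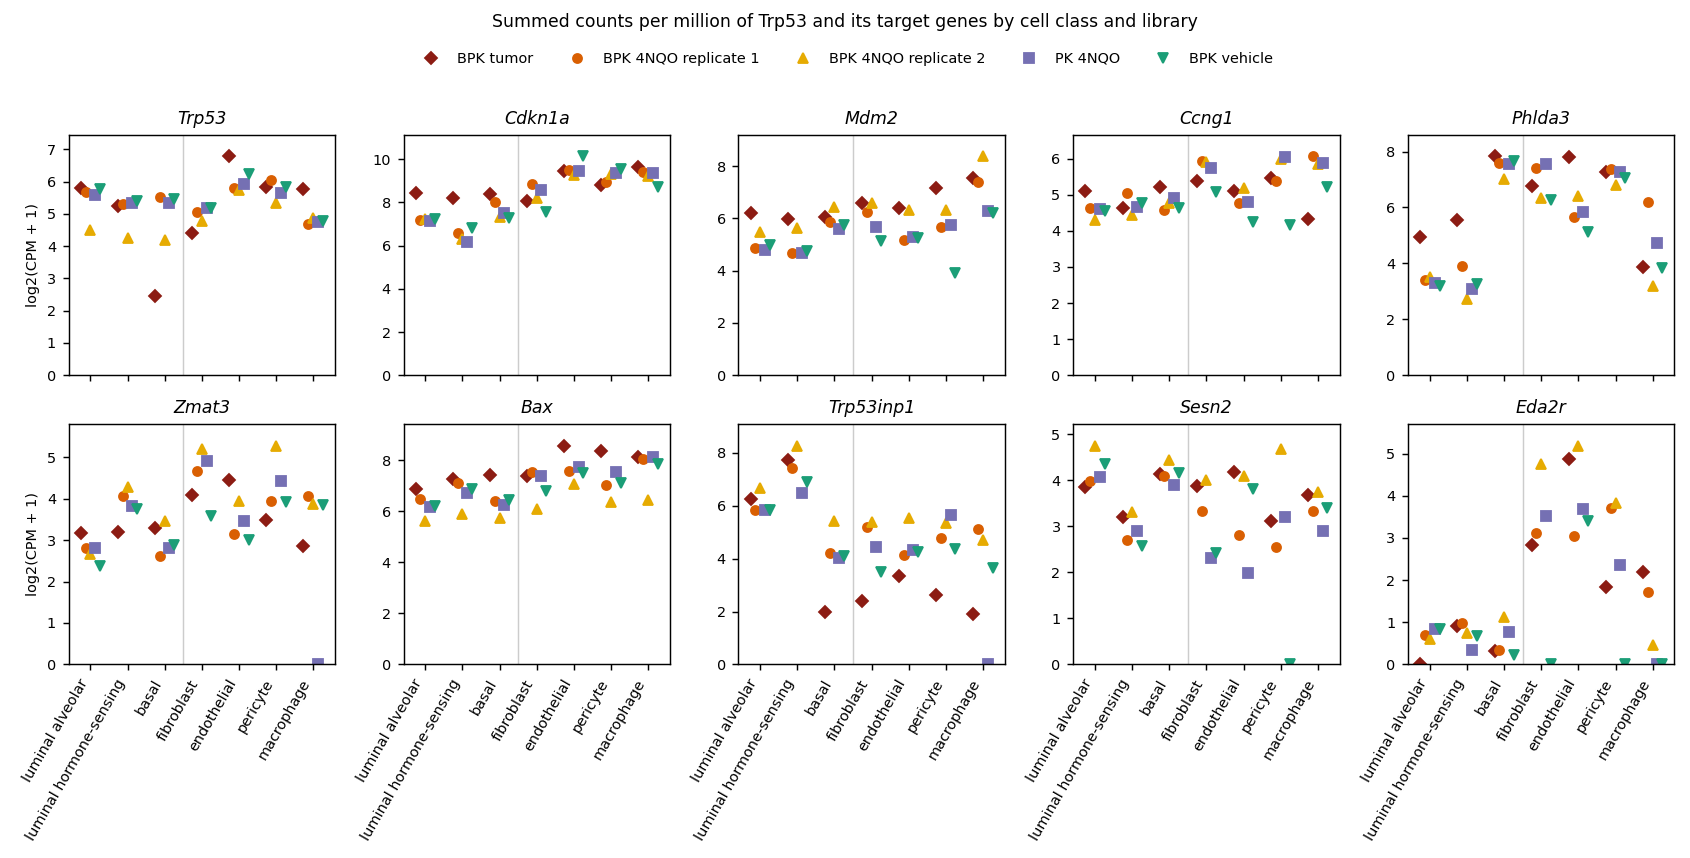
Level of each of the 10 genes as log2(CPM + 1) of the summed counts, by cell class (x axis, epithelial classes left of the grey line) and library (symbols: BPK tumor, BPK 4NQO replicates 1 and 2, PK 4NQO, BPK vehicle). Trp53 sits between 17.1 and 74.4 CPM in all gland libraries and classes and at 4.52 CPM in the basal class of the tumor, while Eda2r is near 0 in the epithelial classes.

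The first comparison set the epithelial classes, where Krt14cre acts, against the stroma, which lies outside its lineage, within the 4 gland libraries. Epithelium was the mean of the luminal alveolar, luminal hormone-sensing and basal classes, stroma the mean of fibroblasts and endothelium, and the model had the library as a block. Of the 10 genes, 8 passed an adjusted p of 0.05 by edgeR, 6 lower and 2 higher in epithelium. Of all 12704 genes tested, 65.4% passed in either direction, 31.1% lower and 34.2% higher, so most genes differ between these cell types and the count by itself is no result about p53 targets. The median log2 fold change was -0.55 over the 10 genes and 0.05 over all genes. Taken class by class against the same stroma, 57.7% of all genes passed in basal, 64.5% in luminal alveolar and 66.1% in luminal hormone-sensing cells, and 6, 9 and 6 of the 10 genes.

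Cdkn1a, the p21 gene (chr17:29090976-29100727, plus strand), was lower in epithelium, at -1.77 ± 0.14 on the log2 scale (SE; adjusted p 3.378e-12 by edgeR). The union of epithelial cells had 138.0 and 123.0 CPM in BPK 4NQO, 126.8 CPM in PK 4NQO and 137.5 CPM in vehicle. Endothelium had 720.5 and 626.2 CPM in BPK 4NQO, 705.1 CPM in PK 4NQO and 1121 CPM in vehicle. Epithelial and endothelial values did not overlap, and the ratio of epithelium to endothelium was 0.192 and 0.196 in BPK 4NQO, 0.18 in PK 4NQO and 0.123 in vehicle. The ratio of epithelium to fibroblasts was 0.297 and 0.422 in BPK 4NQO, 0.334 in PK 4NQO and 0.730 in vehicle, and the log2 fold change was -1.20 against fibroblasts alone and -2.34 against endothelium alone, each past the test. Each epithelial class was below the stromal mean and past the test, with -1.34 in basal, -1.62 in luminal alveolar and -2.35 in luminal hormone-sensing cells. A gene on the opposite strand, AC167363.2, overlaps Cdkn1a. In cells thinned to 1500 UMIs each, a Cdkn1a UMI was seen in 15.4% to 17.7% of epithelial cells and in 49.7% to 65.9% of endothelial cells of the gland libraries. Without thinning the shares were 32.3% to 48.6% and 54.4% to 72.6%, and thinning left out 135 to 373 epithelial and 168 to 337 endothelial cells per library.

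The genes of the feedback loop had smaller differences. Mdm2 (chr10:117688875-117710758, minus strand) had a log2 fold change of -0.28 ± 0.15 (SE) in epithelium against stroma, with an adjusted p of 0.0919 by edgeR. It passed the test in the luminal classes, at -0.49 in alveolar and -0.65 in hormone-sensing cells, and did not in basal cells, at 0.29. DESeq2 gave -0.33 with an adjusted p of 0.0494 and so put Mdm2 past the threshold, as did leaving out the vehicle library (-0.41, adjusted p 0.0129 by edgeR). Ccng1, which encodes cyclin G1 and helps to return p53 to its low state, was lower in epithelium by -0.40 ± 0.13 (adjusted p 0.0107 by edgeR), and against endothelium alone it was at 0.15 with an adjusted p of 0.491. Ccng1 did not pass without BPK 4NQO replicate 1 (-0.37, adjusted p 0.0690 by edgeR) or without replicate 2 (-0.24, adjusted p 0.106). Over the gland libraries Mdm2 was highest in macrophages, with 167.6 and 330.3 CPM in BPK 4NQO, 77.05 CPM in PK 4NQO and 72.2 CPM in vehicle.

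The genes tied to cell death fell into different patterns. Bax, a pore-forming protein of the mitochondrial outer membrane, was lower in epithelium by -0.77 ± 0.10 (SE; adjusted p 1.153e-07 by edgeR), and lower in each of the 3 classes. A predicted gene on the same strand, Gm45808, overlaps Bax and may share its reads. Phlda3, a repressor of the survival kinase Akt, was lower in epithelium on average (-1.60 ± 0.20, adjusted p 3.098e-08), but its classes were opposed. Basal cells had 192.3 and 129.8 CPM in BPK 4NQO, 185.2 CPM in PK 4NQO and, in vehicle, a level with a 95% exact Poisson interval of 188.6 to 212.0 CPM. Luminal alveolar cells had 9.52 and 10.4 CPM in BPK 4NQO, 8.73 CPM in PK 4NQO and 8.14 CPM in vehicle. Against the stroma, Phlda3 was at 1.23 in basal, -2.99 in luminal alveolar and -3.02 in luminal hormone-sensing cells, each past the test. Eda2r, a receptor of the tumor necrosis factor family on the X chromosome, had few counts in epithelium: the epithelial sums held 0.73 and 0.73 CPM in BPK 4NQO, 0.67 CPM in PK 4NQO and 0.58 CPM in vehicle, and endothelium 7.28, 35.6, 11.8 and 9.565 CPM in the same order. Its log2 fold change was -3.84 ± 0.35 (SE; adjusted p 7.316e-11 by edgeR).

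Zmat3, an RNA-binding zinc finger protein, was lower in epithelium by -0.70 ± 0.16 (SE; adjusted p 0.000246 by edgeR), although luminal hormone-sensing cells were at 0.16 and did not pass, and against endothelium alone the value was 0.03. Trp53inp1 and Sesn2 were higher in epithelium. Trp53inp1, a stress protein of autophagy and cell death, had a log2 fold change of 1.49 ± 0.16 (adjusted p 3.683e-09). It was highest in luminal hormone-sensing cells, with 172.8 and 309.0 CPM in BPK 4NQO, 88.6 CPM in PK 4NQO and 118.0 CPM in vehicle. Basal cells had 17.7 and 41.8 CPM in BPK 4NQO, 15.2 CPM in PK 4NQO and 16.2 CPM in vehicle, and against the stroma they were at -0.08, which did not pass. Sesn2, which restrains mTORC1 and is raised by the integrated stress response as well as by p53, was higher in epithelium by 0.68 ± 0.19 (adjusted p 0.00315 by edgeR), with 1.05 in basal and 1.29 in luminal alveolar cells, and -0.31 in luminal hormone-sensing cells, which did not pass. A predicted gene on its strand, Gm12981, overlaps Sesn2.

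**Figure D2:**
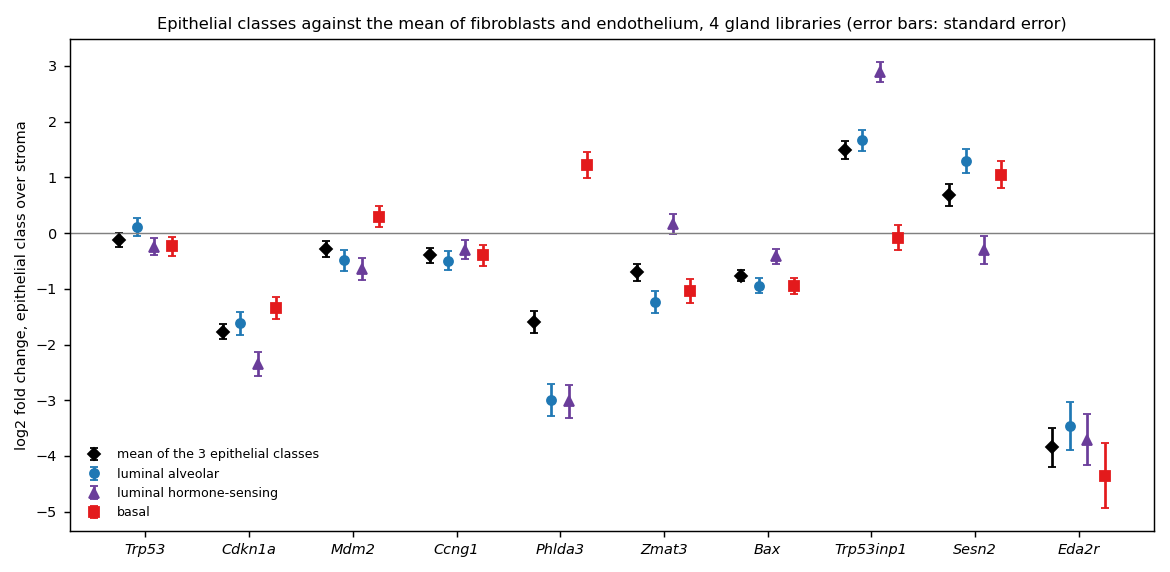
Log2 fold change (y axis, error bars: standard error) of each gene in the mean of the epithelial classes and in each class alone, against the mean of fibroblasts and endothelium in the 4 gland libraries. Cdkn1a, Bax and Eda2r lie below 0 in all 3 classes, and Phlda3 lies at 1.23 in basal cells and near -3.0 in both luminal classes.

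Other lists give the surroundings of these values. Of all 12704 genes tested between epithelium and stroma, 65.4% passed by edgeR, 31.1% lower and 34.2% higher. The list counts below stand beside these shares. Of 27 further p53 targets, 25 passed the filter on low counts and 20 were past the test between epithelium and stroma, 13 lower and 7 higher. Among the lower ones were Dram1 (-4.00 ± 0.31), an autophagy gene, Gdf15 (-3.70 ± 0.32), a secreted stress factor, and Apaf1 (-1.90 ± 0.15), the scaffold of the apoptosome. Among the higher ones were Perp (3.86 ± 0.16), a desmosome protein that p63 also controls, and the repair genes Ddb2 (1.01 ± 0.19) and Xpc (0.74 ± 0.15). Of 12 cell cycle genes that p53 lowers through p21, 11 were higher in epithelium and none lower, among them Mki67 (1.01 ± 0.26) and Cdc25c (2.63 ± 0.48). Against fibroblasts alone 10 of the 20 target genes and 5 of the 11 cell cycle genes still passed in the same direction, and without the vehicle library 7 of the 11 did. Of 12 genes of dissociation stress and the immediate early response, 8 were lower and 2 higher in epithelium, with summed levels of 17570 and 17660 CPM in BPK 4NQO epithelium, 19150 CPM in PK 4NQO and 14250 CPM in vehicle, against 23870, 19660, 24100 and 29480 CPM in endothelium in the same order. Their part in the difference of Cdkn1a was not tested. The integrated stress response was mixed, with 3 of 7 higher, among them Sesn2 itself, and 2 lower.

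The second comparison asked what repeated 4NQO did to these genes, with BPK 4NQO (2 libraries) against BPK vehicle (1 library) in each class. Of 64 tests of a gene in a class, 1 passed the edgeR adjusted p of 0.05, Eda2r in fibroblasts. In fibroblasts 0.325% of 10472 genes passed, and 0.267% were higher. In the other classes 1.07% of all genes passed in basal, 0.472% in luminal alveolar, 0.339% in luminal hormone-sensing cells, 0.273% in endothelium, 0.0486% in pericytes and 0.0% in macrophages. The model had 1 residual degree of freedom, from the BPK 4NQO pair. In simulated fibroblast sums of this design it recovered 11.9% of genes changed 2-fold and 85.1% of those changed 4-fold, so a change of 2-fold would mostly be missed.

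Eda2r had 7.66 CPM in fibroblasts of BPK 4NQO replicate 1 (11 UMIs), 25.95 CPM in replicate 2 (129 UMIs) and 10.49 CPM in PK 4NQO (8 UMIs), and no UMI in 729 vehicle fibroblasts. A count of 0 there allows up to 1.63 CPM (3 counts). Set against that limit, the mean of the BPK 4NQO libraries was 10.3-fold higher. Replicate 1 alone was 4.69-fold, replicate 2 15.9-fold and PK 4NQO 6.42-fold higher. These folds take the 4NQO values as exact, and the counting error on 11 and 8 UMIs is not in them, so they are not lower bounds. The edgeR adjusted p was 0.0146, and DESeq2 gave no adjusted p for this gene. In cells thinned to 1500 UMIs, an Eda2r UMI was seen in 0.885% and 3.46% of BPK 4NQO fibroblasts, 1.05% of PK 4NQO fibroblasts and none of 572 vehicle fibroblasts. Thinning left out 76 and 200 BPK 4NQO, 190 PK 4NQO and 157 vehicle fibroblasts, and without it the shares were 2.17% and 7.40% in BPK 4NQO, 1.84% in PK 4NQO and 0% in vehicle. The thinned share among epithelial cells, whose Eda2r level is near 0, was 0.0347% to 0.118% in the gland libraries.

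No other gene of the 10 passed in fibroblasts, and their values follow. Cdkn1a had 464.4 and 291.3 CPM in BPK 4NQO, 380.3 CPM in PK 4NQO and 188.4 CPM in vehicle. Mdm2 had 74.5 and 96.2 CPM in BPK 4NQO, 49.8 CPM in PK 4NQO and 34.3 CPM in vehicle. Ccng1 had 59.9 and 58.7 CPM in BPK 4NQO, 52.45 CPM in PK 4NQO and 32.7 CPM in vehicle. The vehicle library was the lowest of the 4 for each of these genes, which hold the arrest gene and both feedback genes. Zmat3 had 24.4 and 35.8 CPM in BPK 4NQO, 28.85 CPM in PK 4NQO and 10.9 CPM in vehicle. Trp53inp1 had 35.5 and 40.4 CPM in BPK 4NQO, 20.98 CPM in PK 4NQO and 10.3 CPM in vehicle. Phlda3 had 170.6 and 79.05 CPM in BPK 4NQO, 184.9 CPM in PK 4NQO and 76.2 CPM in vehicle, so replicate 2 lay next to vehicle. In all, 7 of the 10 genes were higher in each of the 3 4NQO libraries than in vehicle, where 27.8% of all genes tested in fibroblasts were. Bax, Sesn2 and Trp53 were not: Bax had 185.2 and 67.8 CPM in BPK 4NQO, 167.9 CPM in PK 4NQO and 110.5 CPM in vehicle. The median log2 fold change over the 10 genes was 0.99, with 0.06 over all genes, and the unadjusted edgeR p was under 0.05 for 2 of the 10, Eda2r and Trp53inp1 (p 0.0449). Eda2r, 1 of the 7, had no UMI in vehicle and passed the low-count filter through the 4NQO libraries. The 10 genes were chosen with earlier results of these data known, so all genes are no independent reference for the count of 7 or the median.

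**Figure D3:**
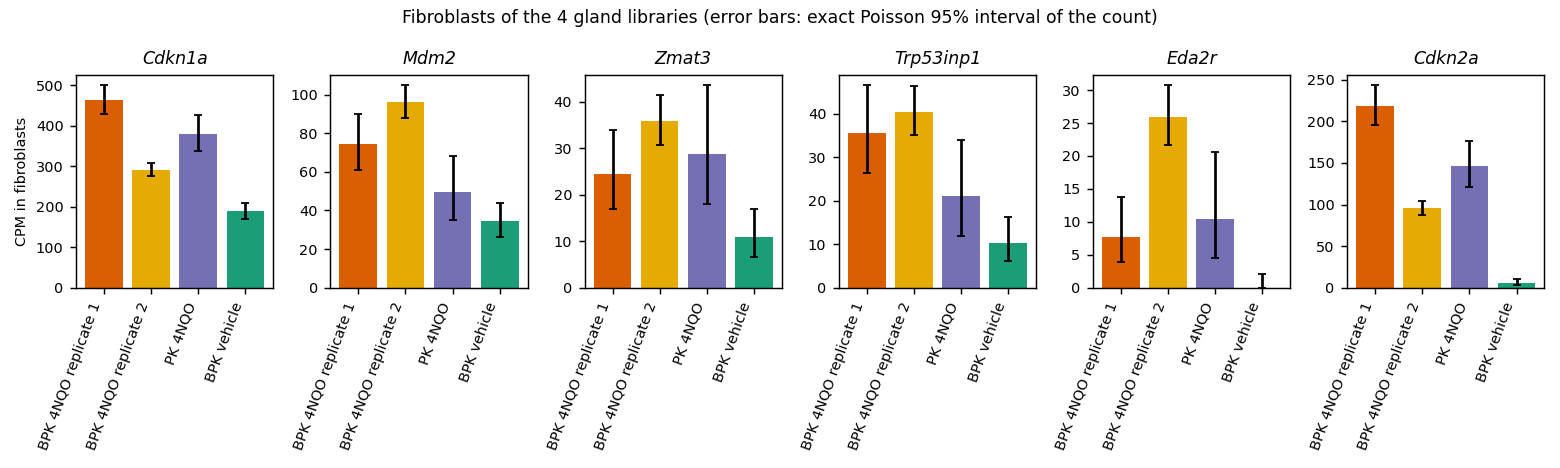
CPM in fibroblasts of BPK 4NQO replicates 1 and 2, PK 4NQO and BPK vehicle (bars), with exact Poisson 95% intervals of the count, for 5 of the p53 genes and for Cdkn2a. The vehicle bar is the lowest in each panel: 188.4 CPM for Cdkn1a, 5.99 CPM for Cdkn2a and 0 for Eda2r. The 5 p53 genes are among the 7 of 10 that were higher in all 3 4NQO libraries, so this order follows from their choice. Bax, Sesn2 and Trp53, which were not, have no panel.

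Among p53 regulators, Cdkn2a passed the test in fibroblasts, 1 of the 16 tested. The locus encodes p16 and p19ARF, and p19ARF holds Mdm2 away from p53. It had 218.6 and 95.7 CPM in BPK 4NQO fibroblasts, 146.9 CPM in PK 4NQO and 5.99 CPM in vehicle (11 UMIs), which gives 4.57 ± 1.16 as log2 fold change (SE; edgeR adjusted p 0.0315, and 0.0532 with no low-count filter). With PK 4NQO pooled in it was 4.55 ± 0.91 and did not pass by edgeR (adjusted p 0.5004), and passed by DESeq2 (adjusted p 9.44e-05) and with no low-count filter. All 3 4NQO libraries were above vehicle and their intervals did not overlap that of vehicle. In basal cells it had 8.58 and 17.5 CPM in BPK 4NQO, 4.96 CPM in PK 4NQO and 9.49 CPM in vehicle. Of the 27 further p53 targets, 23 passed the low-count filter in fibroblasts. Of these 23, 9 were higher in all 3 4NQO libraries than in vehicle (27.8% of all genes) and 4 were lower (13.2% of all genes). Among the higher ones was Dram1, with 81.5 and 73.0 CPM in BPK 4NQO, 38.0 CPM in PK 4NQO and 16.9 CPM in vehicle. None of the 23 that were tested passed. The summed dissociation and immediate early genes were at 17170 and 21550 CPM in BPK 4NQO fibroblasts, 20230 CPM in PK 4NQO and 19890 CPM in vehicle, so they did not separate the groups. The 6 summed epithelial markers, all detected in each library, were at 285.5 and 162 CPM in BPK 4NQO fibroblasts, 489 CPM in PK 4NQO and 298 CPM in vehicle. Of the fibroblasts of replicate 2, 93.8% lay in clusters of its own, and whether these are the same kinds of fibroblast was not tested.

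Over the union of epithelial cells 2 of the 10 genes, Zmat3 and Eda2r, were higher in all 3 4NQO libraries than in vehicle (21.2% of all genes), and 1, Trp53, was lower (13.1% of all genes). Cdkn1a, as given above, spanned 123.0 to 138.0 CPM over the 4 libraries. None of the 10 passed the treatment test in epithelium by edgeR, where 0.465% of all genes did, none had an unadjusted p under 0.05, and the median log2 fold change was -0.12. Basal cells had 260.4 and 159.3 CPM of Cdkn1a in BPK 4NQO, 183.7 CPM in PK 4NQO and 157.1 CPM in vehicle. In endothelium the vehicle value of Cdkn1a was the highest of the 4. In macrophages Cdkn1a had 684.1 and 604.8 CPM in BPK 4NQO, 648.5 CPM in PK 4NQO and 421.6 CPM in vehicle. Among pericytes 6 of the 10 genes (Mdm2, Ccng1, Zmat3, Trp53inp1, Sesn2 and Eda2r) were higher in all 3 4NQO libraries than in vehicle. Cdkn1a was lower. Sesn2 and Eda2r had no UMI in vehicle pericytes and did not pass the low-count filter there. Of the 8 genes that passed it, 4 were higher and 1 lower, where 22.3% of all genes tested in pericytes were higher and 18.1% lower. In pericytes Mdm2 had 50.7 and 79.5 CPM in BPK 4NQO, 53.3 CPM in PK 4NQO and 14.1 CPM in vehicle, with an unadjusted edgeR p of 0.0313 and an adjusted p of 1.0.

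Among the 12 cell cycle genes that p53 lowers through p21, 4 fell in luminal hormone-sensing cells of BPK 4NQO glands by edgeR, the mitotic genes Ccnb1, Ccnb2, Cdk1 and Birc5, where 0.339% of genes passed and 0.197% were lower. Ccnb2 had 4.86 and 8.88 CPM in BPK 4NQO, 7.53 CPM in PK 4NQO and 42.1 CPM in vehicle (log2 fold change -2.82 ± 0.69, adjusted p 0.0157 by edgeR). None of the 4 passed by DESeq2 or with classes from clusters. Birc5 and Ccnb1 were lost too with doublets kept or with the compared libraries alone, and Birc5 with no low-count filter. The log2 fold changes in the settings that lost a call were -2.31 to -2.81. Cdkn1a did not pass in these cells, with 95.4 and 79.5 CPM in BPK 4NQO, 71.9 CPM in PK 4NQO and 112.0 CPM in vehicle.

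The difference between the 4NQO effects in fibroblasts and in epithelium was tested by an interaction term, with the 3 4NQO libraries against vehicle. The choice of these 2 classes was made after the levels were seen. The difference was above 0 for all 10 genes, with a median of 0.82 on the log2 scale against -0.03 over all genes. None of the 10 passed by edgeR, where 0.00685% of 14600 genes did. The unadjusted p was under 0.05 for 2, Cdkn1a (0.97 ± 0.38, p 0.0263, adjusted p 1.0) and Eda2r (p 0.00166, adjusted p 0.90). Without BPK 4NQO replicate 2, the difference was 1.12 for Cdkn1a, 1.21 for Phlda3 and -0.04 for Trp53. Whether Cdkn1a, Phlda3 and Eda2r passed depended on which 4NQO library was left out. The share of all genes that passed in those smaller fits is not given here. Such calls therefore add no support to a difference between classes that were chosen after the levels were seen.

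**Figure D4:**
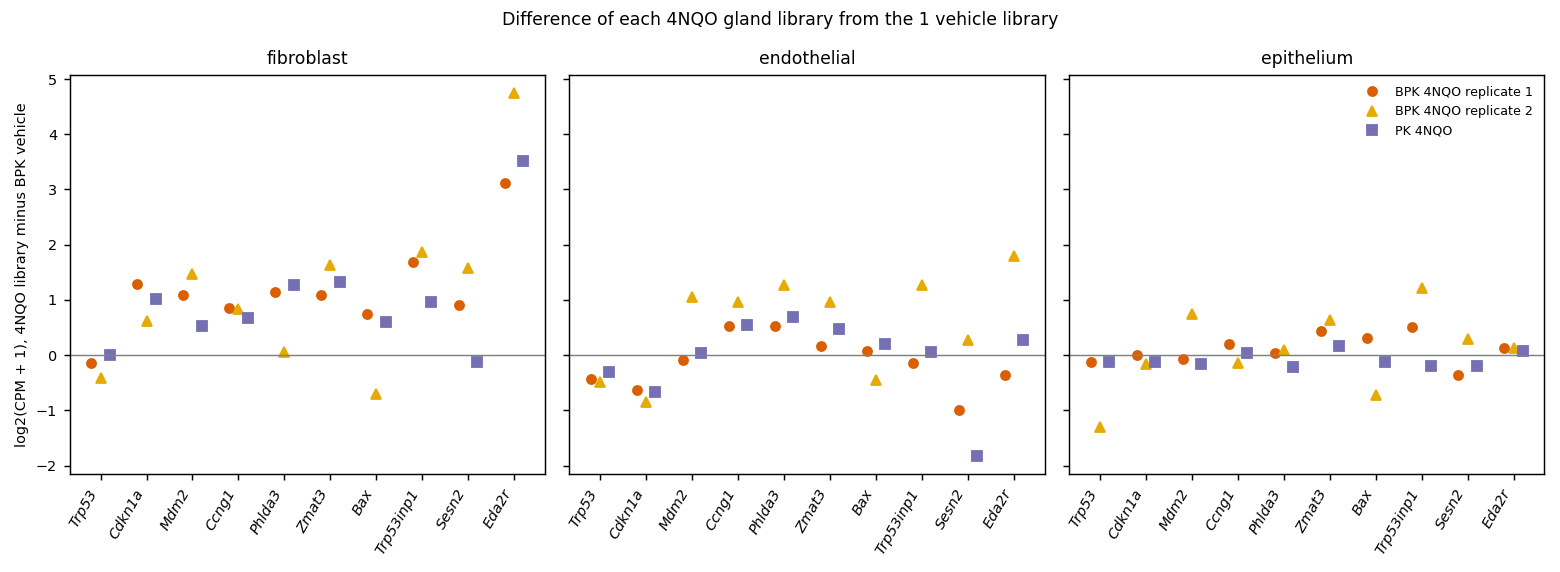
Difference of each 4NQO gland library (symbols) from the 1 vehicle library in log2(CPM + 1), for the 10 genes in fibroblasts, endothelium and the union of epithelial cells. In fibroblasts 7 of the 10 genes have all 3 symbols above 0, where 27.8% of all genes tested do. In epithelium 2 of the 10 do, where 21.2% of all genes tested do.

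The third comparison set BPK 4NQO against PK 4NQO, whose genotypes differ in 1 Brca1 allele. It shares the BPK 4NQO libraries with the treatment comparison. The PK library was counted with Cell Ranger 3.0.2 and both BPK 4NQO libraries with 5.0.1, so genotype and version cannot be told apart. None of 64 tests passed by edgeR or by DESeq2, none had an unadjusted p under 0.05, and of all genes 0.337% passed in luminal alveolar, 0.275% in basal and 0.165% in luminal hormone-sensing cells, 0.0941% in endothelium, 0.0191% in fibroblasts, 0.0162% in macrophages and 0.0% in pericytes. Cdkn1a in fibroblasts had 464.4 and 291.3 CPM in BPK 4NQO and 380.3 CPM in PK 4NQO. With 1 PK library this does not show that the genotypes are alike.

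The fourth comparison set the BPK tumor against BPK 4NQO glands. The basal gate left out Acta2, Mylk and Cnn1, a choice made after the data were seen. Most epithelial cells of the tumor fell in this gate, 1067 of 1518. These cells had 15920 CPM of Krt14 and 3411 CPM of Krt5, both above the gland values, but Oxtr was at 0.535 CPM and the contractile genes Acta2, Mylk and Cnn1 at 182.6, 5.37 and 12.97 CPM. Basal cells of BPK 4NQO glands had 4623 and 3862 CPM of Acta2, 568.6 and 718.5 CPM of Mylk, and 778.8 and 705.7 CPM of Cnn1. They are called keratin 14-high tumor cells here. Their median depth was 35268 UMIs per cell, against 2703 and 2322.5 in BPK 4NQO basal cells. In the basal class, 79.2% of the tumor cells lay in clusters that were at least 90% tumor cells, and 91.01% of those of BPK 4NQO replicate 2 in clusters of its own. The same share in the tumor was 96.85% in luminal hormone-sensing cells, 80.3% in endothelium, 60.98% in luminal alveolar cells and 0% in fibroblasts, pericytes and macrophages. The classes of tumor and glands are therefore partly made of different clusters. The tumor is 1 library, and the test assumes that it varies like the BPK 4NQO pair.

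Of 63 tests of a gene in a class, 3 passed by edgeR, in the basal and fibroblast classes. No gene of the 10 passed in the other classes, where 3.75% of all genes passed in endothelium, 2.27% in pericytes, 1.38% in luminal hormone-sensing cells, 1.0% in luminal alveolar cells and 0.251% in macrophages. Trp53 was lower in the keratin 14-high tumor cells, with 4.52 CPM (169 UMIs, 95% exact Poisson interval 3.86 to 5.25), against 45.1 and 17.1 CPM in basal cells of BPK 4NQO glands. The log2 fold change was -2.38 ± 0.75 (SE; adjusted p 0.0139 by edgeR, 0.0826 by DESeq2), and it was -0.91 without BPK 4NQO replicate 1. In this class 15.9% of genes passed and 9.81% were lower. Several other tumor classes had more: 54.9 CPM in luminal alveolar cells, 37.2 in luminal hormone-sensing cells, 20.5 in fibroblasts, 54.0 in macrophages and 109.1 in endothelium. The ratio of basal-gated cells to endothelium was 0.0414 in the tumor, against 0.818 and 0.323 in BPK 4NQO glands. In cells thinned to 1500 UMIs, a Trp53 UMI was seen in 0.768% of the tumor cells (exact 95% interval 0.332% to 1.51%), against 7.47% and 3.39% in gland basal cells. Without thinning the shares were 13.8% in the tumor, against 14.01% and 4.92%, at the unequal depths given above. In tumor cells gated by keratinocyte markers the thinned share was 1.41% of 71 cells (exact 95% interval 0.036% to 7.6%). Their share without thinning was 26.6% of 79 cells. A recombined allele and less RNA from an intact one cannot be told apart here.

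Trp53inp1 passed in the tumor in 2 classes. The keratin 14-high cells had 2.92 CPM, against 17.7 and 41.8 CPM in BPK 4NQO basal cells (log2 fold change -2.79 ± 0.75, adjusted p 0.00269 by edgeR). Tumor fibroblasts had 4.23 CPM, against 35.5 and 40.4 CPM in BPK 4NQO fibroblasts (-2.92 ± 0.87, adjusted p 0.0392 by edgeR), where 2.57% of genes passed and 1.25% were lower. The fibroblast call was lost by DESeq2 (-2.86, adjusted p 0.207) and with no low-count filter (-2.89, adjusted p 0.0770 by edgeR), while the keratin 14-high call passed in both. Endothelium, pericytes and macrophages of the tumor were below both BPK 4NQO libraries as well, at 9.09, 5.09 and 2.70 CPM, without passing. Luminal cells were not: hormone-sensing cells had 210.6 CPM in the tumor, against 172.8 and 309.0 CPM in BPK 4NQO glands.

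**Figure D5:**
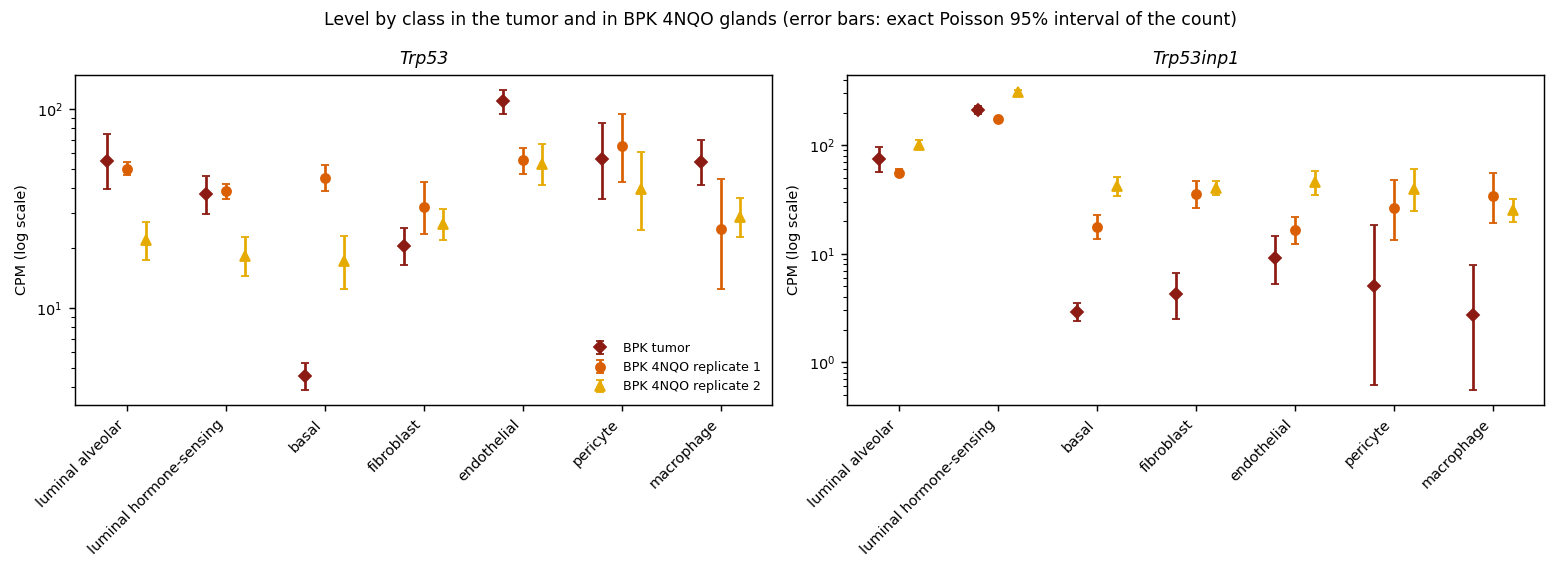
CPM on a log axis of Trp53 and Trp53inp1 by cell class in the BPK tumor and in BPK 4NQO replicates 1 and 2, with exact Poisson 95% intervals of the count. In the basal class the tumor lies at 4.52 CPM for Trp53 and 2.92 CPM for Trp53inp1, below both glands. For Trp53 its luminal, fibroblast, macrophage and endothelial classes lie at 20.5 to 109.1 CPM.

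Over the union of epithelial cells Phlda3 was higher, with 203.4 CPM in the tumor, against 31.6 and 32.9 CPM in BPK 4NQO (3.13 ± 0.76, adjusted p 0.000728 by edgeR), where 15.2% of genes passed and 7.62% were higher. In the basal class alone it had 225.4 CPM, against 192.3 and 129.8 CPM, and did not pass, and basal-gated cells were 1067 of 1518 epithelial cells in the tumor against 1085 of 4445 and 834 of 2361 in the glands. Cdkn1a had 360.8 CPM in tumor epithelium, against 138.0 and 123.0 CPM in BPK 4NQO (1.93 ± 0.86, adjusted p 0.117 by edgeR and 0.0143 by DESeq2). In the basal class it had 337.3 CPM, against 260.4 and 159.3 CPM. Mdm2 had 68.3 CPM in tumor epithelium, against 30.2 and 54.1 CPM, and Bax 164.3 CPM, against 108.9 and 52.97 CPM, neither past the test.

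In tumor epithelium 15.2% of all genes passed by edgeR and 7.62% were higher. Of the 27 further p53 targets, 6 rose and none fell there. They were Perp (4.32 ± 0.99), the BH3 gene Pmaip1 (3.37 ± 0.63), Ak1 (4.17 ± 0.73), Apaf1 (2.18 ± 0.64), Dram1 (2.18 ± 0.74) and Aen (1.84 ± 0.63). Dram1 did not pass by DESeq2 (adjusted p 0.103), nor by edgeR with doublets kept (adjusted p 0.0623) or with classes from clusters (adjusted p 0.112). In the keratin 14-high cells against gland basal cells 15.9% of all genes passed and 9.81% were lower. Of the 25 targets tested there, 3 rose (Ak1, Apaf1, Pmaip1) and 3 fell, the death receptor Fas (-2.31 ± 0.73), Gdf15 (-3.32 ± 0.99) and the spindle gene Psrc1 (-2.65 ± 0.82). Of these 6, Ak1 alone also passed by DESeq2. Cdkn2a rose in the same cells to 236.0 CPM, against 8.58 and 17.5 CPM in BPK 4NQO basal cells (4.72 ± 0.76, adjusted p 6.168e-08 by edgeR). It also passed as higher in luminal alveolar cells (65.6 CPM in the tumor, against 5.95 and 10.7 CPM), endothelium (33.7 CPM, against 0.317 and 0.726 CPM) and pericytes (94.2 CPM, against 0 and 7.57 CPM). Of the 12 cell cycle genes lowered through p21, 9 rose in tumor epithelium, 3 in the keratin 14-high cells, 5 in luminal hormone-sensing cells, 4 in endothelium and 2 in fibroblasts. Of all genes, 15.2%, 15.9%, 1.38%, 3.75% and 2.57% passed in these classes, in the same order. Of the 3 in the keratin 14-high cells, Birc5 alone passed by DESeq2. The 2 in fibroblasts, Birc5 and Cdk1, did not pass by DESeq2 (log2 fold changes 2.55 and 2.96). Birc5 was lost there too with no low-count filter or with doublets kept. The summed levels of the 12 genes were 549 CPM in tumor epithelium against 108 and 222 CPM in BPK 4NQO. The summed dissociation genes were at 5289 CPM in tumor epithelium, against 17570 and 17660 CPM, and the summed keratinocyte markers at 11970 CPM, against 595 and 994 CPM, and the part of either in these changes was not tested. Krt14 was at 780.8 CPM in tumor fibroblasts, against 33.4 and 13.5 CPM in BPK 4NQO fibroblasts. Perp passed in tumor fibroblasts, at 97.6 CPM against 8.36 and 4.02 CPM in BPK 4NQO fibroblasts, and was at 1408 CPM in the keratin 14-high cells. It also passed in endothelium (64.7 CPM, against 3.48 and 4.35 CPM), luminal alveolar cells (207.5 CPM, against 39.2 and 27.45 CPM) and macrophages (74.8 CPM, against 4.53 and 2.93 CPM). The part of Krt14-cell RNA in the values of the other tumor classes was not tested.

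Across 43 sums of a class in a library with at least 30 cells, the genes most like Trp53 in their pattern by Spearman correlation of log2(CPM + 1) were Azi2 (0.715), Nrarp (0.708) and Rab11b (0.704), of 5692 genes compared. For Cdkn1a they were Rgcc (0.854), Ggta1 (0.851) and Stom (0.821), and for Mdm2 they were Il1b (0.7496), Cd44 (0.744) and Ctsa (0.741). The sums of 1 library share its depth and preparation, so these values only describe. Among the 10 genes the closest pair was Zmat3 and Eda2r (0.581). The correlation of Trp53 was 0.07 with Cdkn1a and -0.28 with Mdm2.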

How the data were processed

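Droplet 3' single-cell RNA libraries from 4 gland samples and 1 tumor were analysed. The deposited values are raw UMI counts per gene and barcode, made by the authors with Cell Ranger 5.0.1 (3.0.2 for PK 4NQO), per the file headers, on mm10, per the submitters' processing notes; the counts were not normalised. Barcodes with under 300 genes or over 20% mitochondrial UMIs and called doublets (0.8% per 1000 barcodes) were left out. Cells were put in classes by marker genes, with Acta2, Mylk and Cnn1 left out of the basal markers after the data were seen, and 97.0% of 25201 cells had the same class from Leiden clusters (resolution 3, scanpy 1.11.5). Counts were summed per class and library with at least 30 cells and tested in edgeR 4.0.16 (R 4.3.3) with its low-count filter, TMM scaling, the quasi-likelihood test and Benjamini-Hochberg adjustment over all genes of a class. CPM are of these sums. The tests were checked on simulated data. The 10 genes and the gene lists were chosen with earlier results of these data known. Genes named beyond the 10 are members of those lists that passed a test or, for the treated fibroblasts and the markers, that bear on a value given; Dram1 was chosen after its values were seen. Alternatives were DESeq2 1.42.0, other scaling, no filter, doublets kept, clusters, and leaving out libraries.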

Additional observations from a re-analysis of the deposited data

Results flagged for a closer look

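Cdkn1a differed from the vehicle library in opposite directions in fibroblasts and endothelium: the mean difference in log2(CPM + 1) over the 3 4NQO libraries was 0.98 in fibroblasts and -0.71 in endothelium, 1.69 apart, and every 4NQO library lay on the same side in each class. Phlda3 did so in endothelium (0.83) and basal cells (-0.26), 1.096 apart, but BPK 4NQO replicate 1 (192.3 CPM) lay in basal cells within the 95% exact Poisson interval of vehicle (188.6 to 212.0 CPM), so its side is within counting error. Neither difference was tested, and both rest on the same vehicle library.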

How the results depend on the processing

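No paired analysis was possible because replicate numbers were given in accession order within groups of 1 or 2 libraries and pair no samples. Between epithelium and stroma 8 of the 10 genes passed as reported, and 7 to 9 under every alternative run, leaving out a library included. Trp53 turned round against fibroblasts alone (0.25), Ccng1 (0.15) and Zmat3 (0.026) against endothelium alone, and without 1 library Trp53 ranged from -0.23 to 0.068, the last without BPK 4NQO replicate 2. Among the listed genes Ak1 (0.33), Atf5 (0.71) and Plk3 (-0.59) turned round against endothelium alone, and Ddit4 (0.68), Pmaip1 (0.018) and Tnfrsf10b (0.19) against fibroblasts alone. Ccng1 no longer passed without either BPK 4NQO replicate or with the tumor added, nor Sesn2 without the library block. For BPK 4NQO against vehicle 1 gene passed as reported and 0 by DESeq2, which gave no adjusted p for Eda2r. Leaving out a BPK 4NQO replicate gives a value with no test there: Eda2r and the 3 tumor calls kept their direction, while in fibroblasts Phlda3 ranged from -0.22 to 1.1 and Bax from -0.97 to 0.69, below 0 without replicate 1. With both genotypes pooled against vehicle, an alternative added after the data were seen, 0 passed by edgeR, DESeq2, other size factors, doublets kept or clusters, 1 with no low-count filter (Eda2r in fibroblasts), and 1 to 2 without 1 of the 3 4NQO libraries (without replicate 2, endothelial Cdkn1a and macrophage Phlda3). The fibroblast-minus-epithelium difference of Trp53 ranged from -0.044 to 0.47 without 1 library. In the tumor 3 passed as reported, 1 by DESeq2, Trp53inp1 in basal-gated cells, and 2 with no low-count filter, both in basal-gated cells. No genotype test passed under any alternative run. The causes were not tested. Depth limits Eda2r and Sesn2 in fibroblasts, with 8 or fewer UMIs in some libraries.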
